A study of Mus musculus with 6 samples.

Results

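The 10 genes described here encode the enzymes that build fatty acids from carbohydrate in the liver and the proteins that control them: Acly, Acss2, Acaca, Acacb, Fasn, Me1, Pklr, Thrsp, Srebf1 and Mlxipl. They were taken from the deposited gene table by symbol, not by any measured value, and are 10 of the 45777 genes listed. Earlier results of these data were, however, known when the genes were chosen. All 10 passed the filter on low counts, by which a gene with 0 reads in more than 1 library was left out, and so are among the 17274 genes tested.

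The study sequenced liver RNA from male C57BL/6 mice on a high-fat diet (HFD), 3 littermate controls (LT) and 3 mice labelled as lacking ferroportin, the iron exporter encoded by Slc40a1, in hepatocytes (Fpn-LKO). Both groups carried the floxed ferroportin allele on both chromosomes. Only the Fpn-LKO mice also carried Cre recombinase under the albumin promoter (Alb-Cre), which is active in hepatocytes. Liver cells in which Cre is not active keep the allele whole. The floxed allele came from a 129S line and had been backcrossed to C57BL/6J for 10 generations. The HFD, with 60% of its energy as fat, was begun at 8 weeks of age. How long these mice had been fed is not given in the sources used here. Each library came from 1 mouse, and the labels give all 6 the same batch.

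De novo lipogenesis turns surplus sugar into fat. Glycolysis, whose last step in hepatocytes is catalysed by the liver pyruvate kinase Pklr, feeds citrate out of the mitochondria, ATP citrate lyase (Acly) splits it into acetyl-CoA, and acetyl-CoA carboxylase 1 (Acaca) and fatty acid synthase (Fasn) extend acetyl-CoA into palmitate with NADPH that is supplied in part by malic enzyme (Me1). SREBP-1c, a product of Srebf1 that responds to insulin, and ChREBP, the product of Mlxipl that responds to sugar, switch these genes on, and dietary fat and fasting are known to lower them.

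The sequences just before a transcript start of 4 of these genes are shown. Acaca, Acly and Fasn were chosen because they did not overlap between the groups in CPM, with the 3 LT libraries above the others. CPM, which scales reads to the size of the library, is defined below. By that measure 10.6% of all genes tested did not overlap. In the deposited TPM, a scale that corrects for length, Acly and Fasn overlapped. Pklr was added as the textbook target of ChREBP. Each run is the 250 bases before a RefSeq transcript start in build GRCm38.p6, read 5′ to 3′ on the strand of the gene, and capitals mark the motifs found. For Acaca the window is chr11:84195188-84195437 on the plus strand, for Acly chr11:100528001-100528250 on the minus strand, for Fasn chr11:120824548-120824797 on the minus strand, and for Pklr chr3:89136373-89136622 on the plus strand. Of these windows, only that of Acly lies upstream of the whole gene. Those of Acaca, Fasn and Pklr lie within the span of their gene, since RefSeq gives further transcript starts. The Acaca gene begins at 84129635, far before its window.
Acaca: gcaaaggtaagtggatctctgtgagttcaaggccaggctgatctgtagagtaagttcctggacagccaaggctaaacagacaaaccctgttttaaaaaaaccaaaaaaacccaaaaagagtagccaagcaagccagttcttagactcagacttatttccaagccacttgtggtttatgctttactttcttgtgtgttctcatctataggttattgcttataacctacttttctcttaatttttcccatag
Acly: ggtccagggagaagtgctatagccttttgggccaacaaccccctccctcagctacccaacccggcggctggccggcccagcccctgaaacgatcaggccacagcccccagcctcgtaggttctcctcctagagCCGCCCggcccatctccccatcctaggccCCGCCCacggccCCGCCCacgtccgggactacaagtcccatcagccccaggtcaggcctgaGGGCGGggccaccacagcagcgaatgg
Fasn: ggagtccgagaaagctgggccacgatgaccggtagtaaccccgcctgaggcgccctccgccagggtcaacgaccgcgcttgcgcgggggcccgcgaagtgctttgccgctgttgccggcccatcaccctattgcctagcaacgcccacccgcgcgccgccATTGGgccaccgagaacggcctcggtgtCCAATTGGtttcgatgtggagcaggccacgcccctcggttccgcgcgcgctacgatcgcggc
Pklr: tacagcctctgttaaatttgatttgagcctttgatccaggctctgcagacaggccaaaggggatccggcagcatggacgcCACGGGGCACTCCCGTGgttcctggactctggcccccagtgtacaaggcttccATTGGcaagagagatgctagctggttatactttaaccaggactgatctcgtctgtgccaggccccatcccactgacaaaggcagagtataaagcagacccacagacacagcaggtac

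The capitals in the Fasn run are CCAAT boxes (CCAAT, the letters bound by NF-Y), at -90 to -86, -62 to -58 and -59 to -55 from the start. The capitals in the Acly run are GC boxes (GGGCGG, the letters bound by Sp1) at -117 to -112, -88 to -83, -76 to -71 and -27 to -22. The Pklr run holds a CCAAT box at -117 to -113 and, at -170 to -154, the paired sites of a carbohydrate response element, CACGNG and CNCGTG separated by 5 bases. The Acaca run, which lies inside the gene, holds none of the motifs searched. Motifs were searched on both strands in windows that run from the 250 bases before each start into the transcript, of which the RefSeq table holds 15 for the 10 genes and 32851 in all. A CCAAT box was present in 10 of the 15 windows, from 9 of the 10 genes, against 37.4% of all windows, and a GC box in 6 windows from 5 genes, against 35.7% of all windows and 55.8% of the windows of tested genes. The carbohydrate response element, which was found in 0.0457% of all windows, was in 1 of the 15, that of Pklr. A sterol response element (TCACNCCAC), found in 1.24% of all windows, and an E-box (CACGTG), found in 7.15%, were each in 1 of the 15, both in windows of Mlxipl. These matches describe the letters of the windows and are not evidence of binding, and a window without a match says nothing about elements that lie elsewhere.

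Levels are given in CPM, the deposited reads of a gene scaled to the size of its library after TMM normalization, and a fold change sets the libraries labelled Fpn-LKO over those of LT. The genotypes were compared for every gene by edgeR's quasi-likelihood test, with p-values adjusted by the Benjamini-Hochberg method over all 17274 genes and a threshold of 0.05. Total counts lay between 43086184 and 47778683 per library. Slc40a1 itself, the gene to be deleted, had 154, 180 and 126 CPM in LT against 143, 143 and 176 CPM in those labelled Fpn-LKO (log2 fold change 0.0073, adjusted p = 0.995), so that its gene-level count does not show the deletion and every direction given here rests on the labels. Hepatocyte markers summed to between 82150 and 99140 CPM in LT and between 83760 and 93590 CPM in those labelled Fpn-LKO. In whole liver, fewer cells of a type and less RNA per cell cannot be told apart.

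Among the genes that supply the carbon, Acly was lower in each of the 3 libraries labelled Fpn-LKO than in any LT library. It had 87.0, 134.8 and 88.3 CPM in LT against 73.0, 81.8 and 58.7 CPM in those labelled Fpn-LKO. The group means of 103 ± 27.2 and 71.2 ± 11.6 CPM (SD, n = 3 each) gave a log2 fold change of -0.54 (standard error 0.21) with an unadjusted p = 0.0332 and an adjusted p = 0.982 by edgeR. The groups did not overlap, but only a small gap separated LT replicate 1 from Fpn-LKO replicate 2, and without LT replicate 2, the highest of the 6 libraries, the log2 fold change was -0.30 (unadjusted p = 0.124, edgeR). The unadjusted p was also above 0.05 without Fpn-LKO replicate 1 or 3.

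Acss2, which makes acetyl-CoA from acetate in the cytosol and nucleus, showed no such separation. Its values were 38.6, 40.8 and 58.7 CPM in LT against 49.5, 45.3 and 35.5 CPM in those labelled Fpn-LKO. LT replicate 3 was the highest library and Fpn-LKO replicate 3 the lowest, with the other libraries labelled Fpn-LKO above the other LT libraries between them. The log2 fold change was -0.08, smaller than its standard error of 0.20 (edgeR, adjusted p = 0.995).

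Pklr had 48.8, 69.7 and 70.2 CPM in LT against 40.1, 59.1 and 32.0 CPM in those labelled Fpn-LKO. The groups overlapped, because Fpn-LKO replicate 2 lay above LT replicate 1. The group means of 62.9 ± 12.2 and 43.8 ± 13.9 CPM (SD, n = 3 each) gave a log2 fold change of -0.52 (standard error 0.24). By edgeR the unadjusted p was 0.0673 and the adjusted p 0.982.

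Me1, the cytosolic malic enzyme that yields NADPH, varied more within each genotype than between them. It had 50.6, 41.6 and 12.3 CPM in LT against 32.2, 44.1 and 15.2 CPM in those labelled Fpn-LKO. Replicate 3 was the lowest library in both groups, and the highest library exceeded the lowest 4.13-fold within LT and 2.91-fold within the libraries labelled Fpn-LKO. The standard error of 0.54 exceeded the size of the log2 fold change, -0.19 (edgeR, adjusted p = 0.995).

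**Figure D1:**
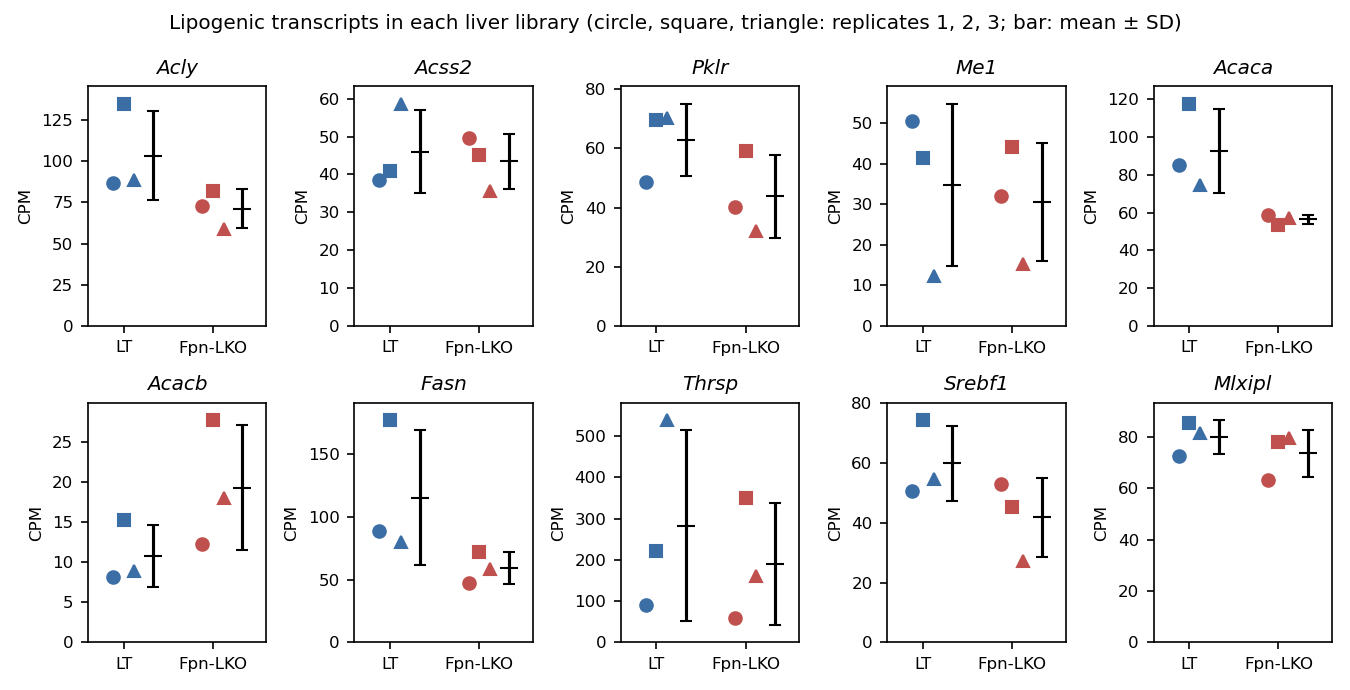
CPM of the 10 genes in each library, 1 panel per gene with its own axis starting at 0; symbols are replicates and black bars are group means with SD (n = 3). Acaca, Acly and Fasn are the genes whose points do not overlap between LT and the libraries labelled Fpn-LKO, and Thrsp and Me1 show the widest spread within a genotype.

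The 2 acetyl-CoA carboxylases, which make malonyl-CoA, had fold changes of opposite sign. Acaca encodes the cytosolic form, whose malonyl-CoA is the building block for fatty acid synthase. It had 85.1, 117.7 and 74.9 CPM in LT against 58.5, 53.7 and 57.2 CPM in those labelled Fpn-LKO. Every LT library was above every library labelled Fpn-LKO, and the latter were close together (56.5 ± 2.48 CPM against 92.5 ± 22.4 CPM in LT, SD, n = 3 each). The log2 fold change was -0.71 (standard error 0.17) with an unadjusted p = 0.00382, the smallest among the 10 genes, and an adjusted p = 0.747 by edgeR. Its log2 fold change lay between -0.84 and -0.50 when each mouse was left out in turn.

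Acacb encodes the form at the outer mitochondrial membrane, whose malonyl-CoA inhibits fatty acid entry into mitochondria. It had 8.22, 15.2 and 8.87 CPM in LT against 12.2, 27.7 and 18.0 CPM in those labelled Fpn-LKO. The groups overlapped, since LT replicate 2 lay above Fpn-LKO replicate 1. The group means of 10.8 ± 3.87 and 19.3 ± 7.82 CPM (SD, n = 3 each) gave a log2 fold change of 0.84 (standard error 0.34) with an unadjusted p = 0.0414 and an adjusted p = 0.982 by edgeR. Leaving out a mouse moved this value, to 0.49 without Fpn-LKO replicate 2 (unadjusted p = 0.169, edgeR) and to 1.18 without LT replicate 2. The unadjusted p was also above 0.05 without LT replicate 1, LT replicate 3 or Fpn-LKO replicate 3 and with limma on TPM, so the call for the gene with the higher level rests on the choice of libraries and scale.

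Since the carboxylases differed in sign, their ratio within each library was taken on the TPM scale, which accounts for transcript length. This ratio was chosen after the values had been seen. Acaca exceeded Acacb 8.94-, 6.65- and 6.81-fold in LT and 3.81-, 1.61- and 2.75-fold in the libraries labelled Fpn-LKO. The ratio was thus above 1 in all 6 libraries and did not overlap between the groups. The mean log2 ratio was 2.89 ± 0.24 in LT and 1.36 ± 0.63 in the libraries labelled Fpn-LKO (SD, n = 3 each), a difference of -1.53 (exact two-sided permutation test, p = 0.1, which is the smallest p that 3 mice against 3 allow).

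**Figure D2:**
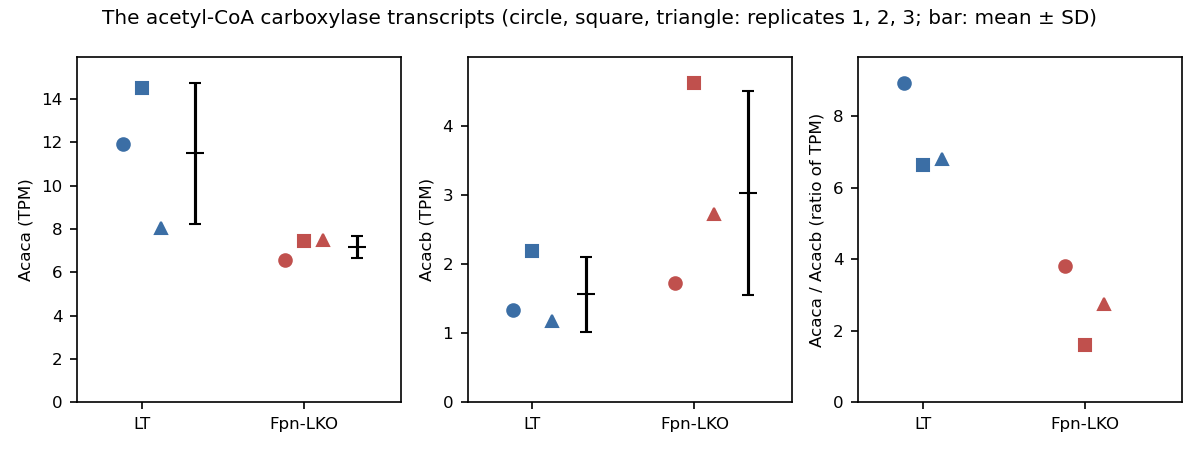
TPM of Acaca, TPM of Acacb and the ratio of the former to the latter in each library by group, on linear axes starting at 0; symbols are replicates and bars are means with SD (n = 3, none drawn for the ratio). For the ratio, the 3 LT libraries lie between 6.65 and 8.94 and the 3 libraries labelled Fpn-LKO between 1.61 and 3.81.

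Fasn, the multi-domain synthase that assembles palmitate, had the most negative log2 fold change of the 10 genes. It had 88.8, 176.6 and 79.8 CPM in LT against 47.2, 72.2 and 58.2 CPM in those labelled Fpn-LKO. The groups did not overlap, and LT replicate 2 stood well above the other LT libraries, as it did for Acly and Acaca. The group means of 115 ± 53.5 and 59.2 ± 12.5 CPM (SD, n = 3 each) gave a log2 fold change of -0.96 (standard error 0.32) with an unadjusted p = 0.0175 and an adjusted p = 0.982 by edgeR. Without LT replicate 2 the log2 fold change was -0.50 (unadjusted p = 0.0406, edgeR), and without Fpn-LKO replicate 1 it was -0.82 (unadjusted p = 0.0597).

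Thrsp encodes Spot 14, a small nuclear protein that follows thyroid hormone and carbohydrate and is linked to lipogenic gene expression. Its values were 90.2, 220.8 and 537.9 CPM in LT against 59.1, 350.8 and 161.8 CPM in those labelled Fpn-LKO. The libraries of a genotype spanned nearly the same range in both groups, 5.96-fold in LT and 5.94-fold in the libraries labelled Fpn-LKO, and the groups overlapped widely. The log2 fold change of -0.57 had a standard error of 0.75 (adjusted p = 0.995 by edgeR), and it was 0.30 without LT replicate 3.

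Of the transcription factors, Srebf1 had 50.6, 74.3 and 54.6 CPM in LT against 52.8, 45.4 and 27.1 CPM in those labelled Fpn-LKO. Fpn-LKO replicate 1 lay between the LT libraries, so the groups overlapped. The log2 fold change was -0.52 (standard error 0.26) with an unadjusted p = 0.0819 and an adjusted p = 0.982 by edgeR. The gene-level count adds the transcripts for SREBP-1a and SREBP-1c together, as that of Pklr adds the liver and erythrocyte forms.

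Mlxipl, by contrast, was the steadiest of the 10 genes. It had 72.7, 85.6 and 81.5 CPM in LT against 63.2, 78.2 and 79.8 CPM in those labelled Fpn-LKO. All 6 values lay in a narrow, overlapping band. The log2 fold change was -0.12, about the size of its standard error of 0.13 (edgeR, adjusted p = 0.991).

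None of the 10 genes passed the adjusted threshold (0 of 10, edgeR), against 0.0232% of all genes tested, and none did by DESeq2, by edgeR's exactTest or by limma. At an unadjusted p under 0.05 there were 4 of 10 genes by edgeR, with Acaca, Acly and Fasn lower and Acacb higher, against 4.80% of all genes tested. DESeq2 gave 5 and exactTest 4 at that level, and edgeR gave 2 (Acaca and Fasn) without Fpn-LKO replicate 3. The groups did not overlap in CPM for 3 of the 10 genes, all lower in the libraries labelled Fpn-LKO, against 10.6% of all genes tested. The log2 fold change was negative for 9 of the 10 genes and positive for Acacb (Acss2 and Me1 were also positive with limma on log2(TPM + 0.1)), with a median of -0.52, beside a median of -0.004 over all genes tested, 49.4% of which had a positive value. The 10 genes are not independent of one another, since they share regulators and come from the same 6 libraries.

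**Figure D3:**
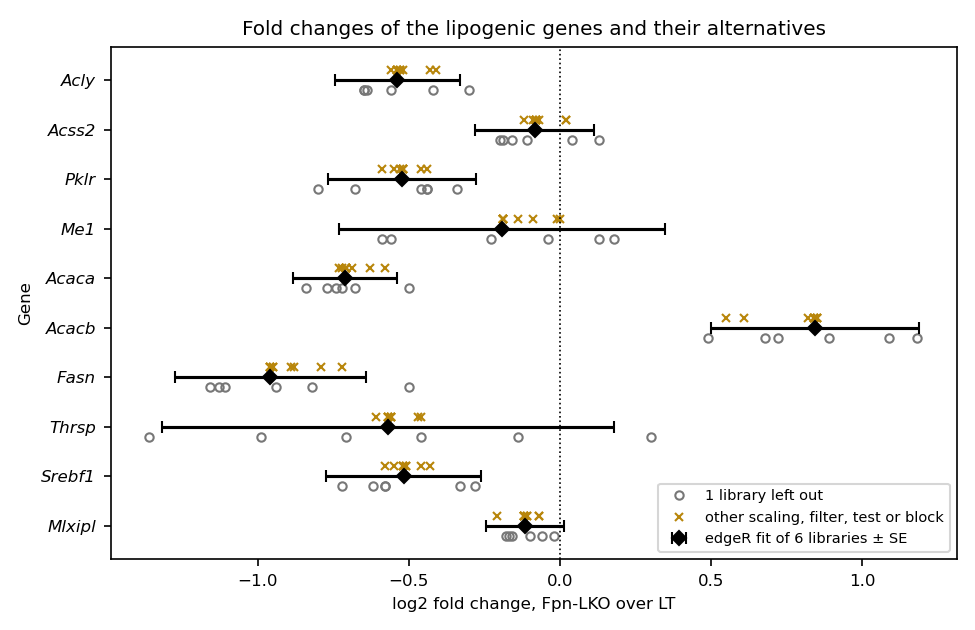
Log2 fold change of the 10 genes, libraries labelled Fpn-LKO over LT, as diamonds with the standard error from edgeR, beside the values with 1 library left out (circles) and under the other settings (crosses). The diamonds range from -0.96 for Fasn to 0.84 for Acacb and 9 lie below 0, but circles or crosses of Acss2, Me1 and Thrsp also lie above 0.

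On the TPM scale, which corrects for length and so allows levels to be compared between genes, Thrsp was the most abundant of the 10 transcripts in LT (mean 309 TPM, range 115 to 561). Acly (29.7 TPM), Pklr (29.1), Mlxipl (22.8), Acss2 (20.3), Srebf1 (17.5), Fasn (14.7), Me1 (14.0) and Acaca (11.5) followed in a shallow gradient. The LT libraries of neighbours in this order overlapped, except between Acly and Thrsp and, narrowly, between Pklr (25.5 to 32.2) and Mlxipl (19.9 to 25.3). Acacb was lowest, at 1.57 TPM (range 1.18 to 2.19), and did not overlap Acaca (range 8.03 to 14.5). In the libraries labelled Fpn-LKO these ranges were 1.73 to 4.62 TPM for Acacb and 6.58 to 7.49 TPM for Acaca.

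The separation of the groups depended on the scale for Fasn and Acly. In deposited TPM, Fasn had 12.6, 22.3 and 9.22 in LT and 5.88, 10.9 and 7.74 in the libraries labelled Fpn-LKO, so that Fpn-LKO replicate 2 lay above LT replicate 3. Acly had 27.8, 38.3 and 23.0 TPM in LT and 20.5, 27.8 and 17.6 TPM in the libraries labelled Fpn-LKO, which also overlapped. Acaca alone of the 10 genes did not overlap in TPM, against 9.15% of all genes tested. TPM is a share of the whole library, and 5 short RNAs without a poly(A) tail (Rn7s1, Rn7s2, Rn7sk, Rpph1 and Rmrp) took 33.9%, 32.2% and 35.0% of it in LT but 41.1%, 16.1% and 20.2% in the libraries labelled Fpn-LKO. When TPM was scaled again without these 5 RNAs, a step chosen after the values had been seen, Fasn had 19.0, 32.9 and 14.2 in LT and 9.99, 13.0 and 9.70 in the libraries labelled Fpn-LKO. On that scale Acaca, Acly and Fasn again did not overlap (3 of 10 genes, against 8.16% of all genes tested).

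Across the 6 libraries the 10 genes did not move as a single block, but some libraries were high or low for many of them. LT replicate 2 was the highest library for 5 of the 10 genes and was above the gene's own mean for 9, and LT replicate 3 was the highest for 3. Fpn-LKO replicate 3 was the lowest library for 4 genes and above the mean for only 2, and Fpn-LKO replicate 1 was the lowest for 3. Fpn-LKO replicate 2 stood above the mean for 6 of the 10 genes, more than LT replicate 1 with 5. Acaca, Acly, Fasn, Srebf1 and Mlxipl shared LT replicate 2 as their highest library, whereas Acss2, Thrsp and Pklr peaked in LT replicate 3. Summed over the 10 genes, the level was 620.5 to 1067 CPM in LT against 488 to 858.3 CPM in those labelled Fpn-LKO, which overlapped, and of this sum Thrsp made up 59.1 to 537.9 CPM.

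**Figure D4:**
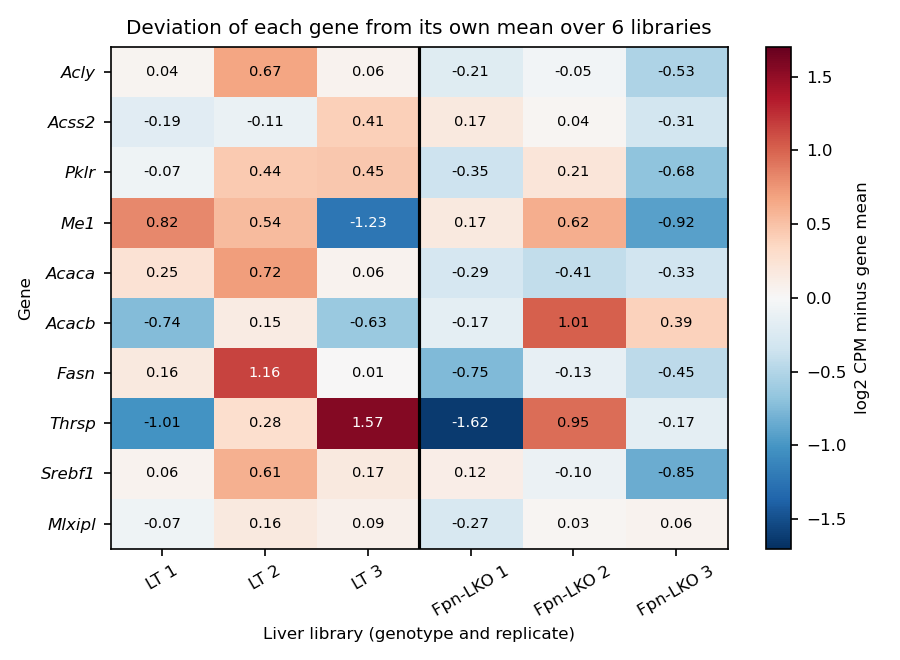
Log2 CPM of each of the 10 genes in each library, centred on the mean of that gene over the 6 libraries; rows are genes, columns are libraries, and colour runs from lower to higher. LT replicate 2 is above the mean for 9 genes and Fpn-LKO replicate 3 for 2.

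The genes around the pathway were taken from lists written by known function, with earlier results of these data known, and none of those named here passed the adjusted threshold. Of 17 tested genes for other steps of fatty acid synthesis, 3 were lower and 0 higher at an unadjusted p under 0.05 by edgeR (4.80% of all genes tested were past it in either direction), with a median log2 fold change of -0.14. Mid1ip1, whose product binds acetyl-CoA carboxylase and makes it polymerise, had 8.26, 15.8 and 8.24 CPM in LT against 3.54, 6.49 and 6.68 CPM in those labelled Fpn-LKO. Its groups did not overlap (log2 fold change -0.95, unadjusted p = 0.0260). Slc25a1, the carrier that exports citrate from mitochondria to Acly, had 50.4, 60.9 and 59.3 CPM in LT against 50.3, 44.8 and 37.8 CPM in those labelled Fpn-LKO, lower without overlap by a narrow margin (log2 fold change -0.36, unadjusted p = 0.0340). Scd1, the desaturase that acts on the product of Fasn, varied widely within both genotypes and was singled out after its values were seen. It had 283, 167 and 64.0 CPM in LT against 1222, 357 and 46.1 CPM in those labelled Fpn-LKO, with replicate 3 lowest in both groups and a log2 fold change of 1.66 (standard error 1.01, unadjusted p = 0.140).

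Among the 18 genes of glycolysis and fructose entry, 3 were lower and 0 higher at an unadjusted p under 0.05 by edgeR, against 4.80% of all genes, with a median log2 fold change of -0.03. The fructose transporter Slc2a5 had 9.06, 12.2 and 11.4 CPM in LT against 6.92, 6.96 and 5.17 CPM in those labelled Fpn-LKO, without overlap (log2 fold change -0.78, unadjusted p = 0.00393). Tkfc, the triokinase of fructose breakdown, had a log2 fold change of -0.81 (unadjusted p = 0.0307) with overlapping groups. For the 12 tested genes of NADPH supply, 0 were past an unadjusted p of 0.05 by edgeR, and for the 14 of pyruvate and citrate supply 1 was, Pdk1 (log2 fold change -0.37, unadjusted p = 0.0314), a kinase that restrains pyruvate dehydrogenase.

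Of 30 genes that control SREBP-1c and ChREBP, 3 were higher and 2 lower at an unadjusted p under 0.05 by edgeR, the level that 4.80% of all genes passed, with a median log2 fold change of 0.06. Insig1, which holds the SREBP precursors in the endoplasmic reticulum and is itself an SREBP target, had 137, 125 and 158 CPM in LT against 83.0, 81.3 and 83.0 CPM in those labelled Fpn-LKO. The groups were far apart (log2 fold change -0.76, standard error 0.12, unadjusted p = 0.000276), but the adjusted p by edgeR was 0.382. Mbtps2, the protease that makes the final cut in SREBP release, had 5.34, 5.06 and 4.83 CPM in LT against 7.09, 9.15 and 7.54 CPM in those labelled Fpn-LKO (log2 fold change 0.64, unadjusted p = 0.00580). Nr1h3, which encodes the oxysterol receptor LXRα that drives Srebf1 and was singled out after its values were seen, had 76.2, 72.7 and 69.8 CPM in LT against 85.1, 85.9 and 86.7 CPM in those labelled Fpn-LKO, a small but non-overlapping difference (log2 fold change 0.24, unadjusted p = 0.0390). Of 10 genes of AMP-activated protein kinase and carboxylase control, 1 was higher at the same level, Camkk2, an upstream kinase of AMPK (log2 fold change 0.67, unadjusted p = 0.00884). Of 19 targets of SREBP-1c and ChREBP outside the pathway, 1 was higher and 1 lower at that level, again beside 4.80% of all genes, with a median log2 fold change of -0.01. The lower gene was Acsl3, which activates long-chain fatty acids (log2 fold change -0.74, unadjusted p = 0.00672).

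The 23 targets of SREBP-2 in the mevalonate and sterol pathway were listed for comparison because SREBP-2 shares its processing machinery with SREBP-1c. Of these, 12 were lower and 0 higher at an unadjusted p under 0.05 by edgeR (4.80% of all genes in either direction), 12 did not overlap between the groups (10.6% of all genes), and the median log2 fold change was -0.38. Idi1 (log2 fold change -1.35) and Msmo1 (-1.05), both enzymes of the pathway, had some of the most negative values. The summed level of the 23 genes was 1121 to 1263 CPM in LT against 916 to 1035 CPM in those labelled Fpn-LKO, which did not overlap.

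**Figure D5:**
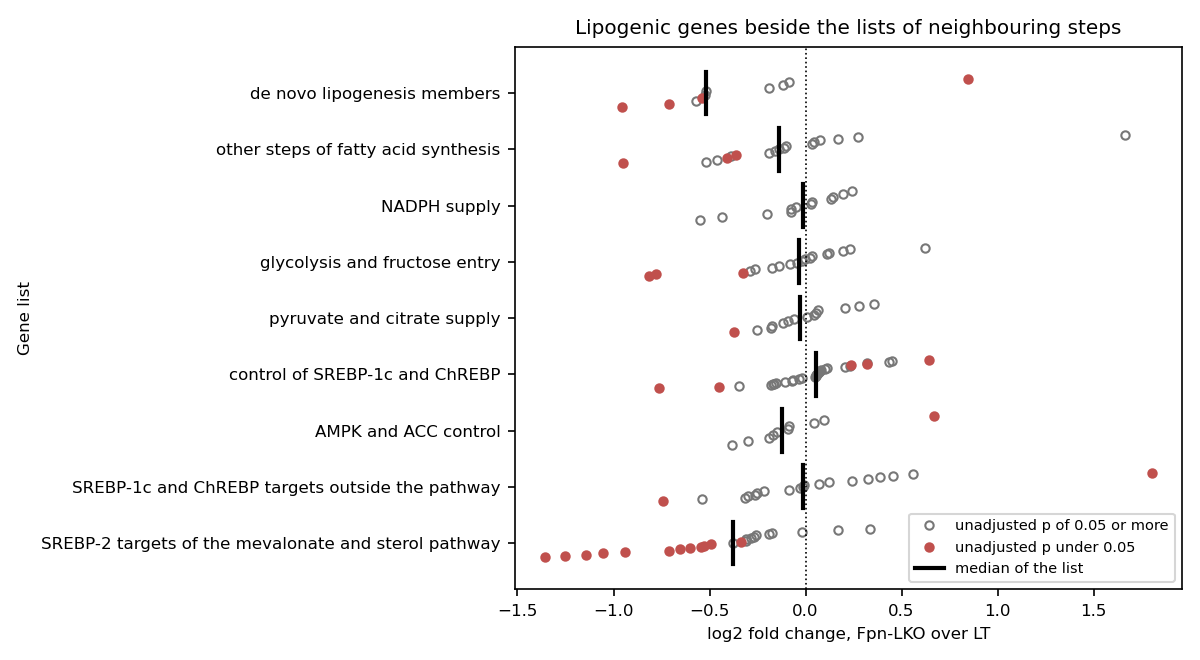
Log2 fold change of every tested gene in the lists around the pathway, libraries labelled Fpn-LKO over LT, 1 row per list, with filled points for an unadjusted p under 0.05 and a black line at the median of each list. The medians run from -0.52 for the 10 lipogenic genes and -0.38 for the SREBP-2 targets to 0.06 for the genes that control SREBP-1c and ChREBP.

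Lipogenic genes are also expressed in fat, are zoned within the liver lobule and follow feeding and the clock, so markers of these were read in the same libraries. Of 11 adipocyte markers, 5 passed the filter, Adipoq, Lep, Plin1, Retn and Tshr were at 0 in all 6 libraries, Fabp4 was higher and Adrb3 lower at an unadjusted p under 0.05 by edgeR (log2 fold changes 1.07 and -2.10), and the summed level was 15.9 to 21.5 CPM in LT against 15.6 to 23.3 CPM in those labelled Fpn-LKO. The summed pericentral hepatocyte markers overlapped between the groups, at 12460 to 15120 and 12490 to 15020 CPM, most of it from Cyp2e1 (8906 to 10856 CPM in LT). All 12 periportal markers had a positive log2 fold change (49.4% of all genes), 4 of them at an unadjusted p under 0.05 by edgeR (4.80% of all genes), with Sds at 1.27 and Gls2 at 1.15. Their summed level overlapped (3150 to 3252 CPM in LT against 2980 to 4193 CPM in those labelled Fpn-LKO). Pck1 (1424 to 1639 CPM in LT) and Arg1 (809 to 844) made up most of this sum, so it says little about the markers with fewer reads. Of 15 genes that respond to fasting, 0 were past an unadjusted p of 0.05 by edgeR or past the adjusted threshold, and their summed level was 6386 to 14460 CPM in LT against 7485 to 9530 CPM in those labelled Fpn-LKO. Of 16 clock genes tested, 0 were higher and 2 lower at an unadjusted p under 0.05 by edgeR (4.80% of all genes). By edgeR these were Per3 (log2 fold change -0.53, unadjusted p = 0.00129) and Tef (-0.33, unadjusted p = 0.0268). Over the 16 genes the log2 fold change was positive for 8 and negative for 8, with a median of -0.01. The summed level of the clock genes did not overlap, at 728.7 to 755.3 CPM in LT against 675.8 to 713.1 CPM in those labelled Fpn-LKO. Tef alone had 167 to 183 CPM in LT against 124 to 154 CPM in those labelled Fpn-LKO, so the sum says little about the other clock genes. The summed endothelial markers did not overlap either, at 348.8 to 412.1 and 320 to 332.2 CPM. As single genes, however, 0 of these 10 markers were without overlap (10.6% of all genes). Their log2 fold change was negative for 8 and positive for 2. Only Lyve1 was past an unadjusted p of 0.05 by edgeR (4.80% of all genes), and it was higher (log2 fold change 1.30). All 8 blood cell markers tested had a positive log2 fold change, with a median of 0.52, while their summed level overlapped (366 to 965 CPM in LT and 512 to 1256 CPM in those labelled Fpn-LKO). The summed levels of Kupffer cell, stellate cell, cholangiocyte and pancreas markers overlapped. The part of zonation, clock phase, blood and endothelial cells in the values of the lipogenic genes was not tested.

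By position, Acaca, Acly, Fasn and Srebf1 lie on chromosome 11 of GRCm38.p6, which holds 7.68% of the tested genes with a position. Acaca spans chr11:84129635-84401651, Acly chr11:100476352-100528000, Fasn chr11:120805958-120825166 and Srebf1 chr11:60199084-60224186. The other 6 lie on chromosomes 2 (Acss2), 3 (Pklr), 5 (Acacb and Mlxipl), 7 (Thrsp) and 9 (Me1). Acaca overlaps Tada2a and 2 predicted genes, Srebf1 overlaps Rai1 and 2 microRNA genes, Pklr overlaps Hcn3, Acss2 overlaps Acss2os, Me1 overlaps A330041J22Rik and Acly overlaps Mir7116. Whether the counting used strand is not stated, so reads from such partners cannot be told apart from those of the member.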

How the data were processed

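RNA-seq libraries from the livers of 3 LT and 3 Fpn-LKO mice were compared, with groups and replicate numbers taken from the sample labels. Reads were aligned to build mm10. The deposited counts, 1 per gene and library, were derived from coverage by StringTie and not normalized by the authors. FPKM and TPM, scaled for length and library by StringTie, were also deposited by the authors, and FPKM was not used for any value. The submitters' processing notes name bcl2fastq 2.20.0, FastQC 0.11.7, HISAT2 2.1.0, Bowtie2 2.3.4.1 and StringTie 2.1.3b, without their order, and the annotation release is not given in the sources used here. The methods describe removal of ribosomal RNA from 0.5 µg of total RNA, but in the labels it is 1 µg with an mRNA kit. The part of this in the levels of RNAs without a poly(A) tail was not tested.

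The unchanged counts entered edgeR 4.0.16, run in R 4.3.3 (TMM scaling, quasi-likelihood test, Benjamini-Hochberg adjustment over 17274 genes), in place of the exactTest of the methods. The filter, at most 1 library with 0 reads, follows the methods. Alternatives were RLE size factors, DESeq2 1.42.0, exactTest, other filters, the replicate number as a block, limma 3.58.1 on TPM (pseudocount 1 or 0.1, mean TPM at least 1), and once more on TPM scaled again without 5 RNAs, chosen after the values were seen, and leaving out each mouse. The scripts were tested on simulated data. The 10 genes were named in full, and from each other list the 3 genes with the smallest p could be named. Scd1 and Nr1h3 are exceptions and are marked as such. Further exceptions are Cyp2e1, Pck1 and Arg1, named because they make up most of a summed level, and the adipocyte markers at 0 in all libraries. The genes and lists were chosen with earlier results of these data known. The spread between mice, with a common biological coefficient of variation of 0.275, exceeded counting error at this depth. The windows at transcript starts and the positions are from RefSeq (GRCm38.p6), in which all 10 genes were matched. The labels do not state a link between mice of the same number in the 2 groups, although their library names carry adjacent numbers.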

Additional observations from a re-analysis of the deposited data

How the results depend on the processing

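The absence of a lipogenic gene past the adjusted threshold held under all 15 alternatives, where adjusted p-values ranged from 0.0727 (Acaca, DESeq2) to 1. Acaca was lower at an unadjusted p under 0.05 under every alternative. The count of lipogenic genes at that level was 2 with limma on log2(TPM + 1) and 1 with log2(TPM + 0.1), and 2 to 4 when each mouse was left out. Their median log2 fold change lay between -0.64 and -0.31. Directions reversed for 3 genes: Acss2 to 0.019 and 0.020 with limma on TPM (pseudocount 1 and 0.1), 0.13 without LT replicate 3 and 0.04 without Fpn-LKO replicate 3, Me1 to 0.005 with log2(TPM + 0.1), 0.18 without LT replicate 1 and 0.13 without Fpn-LKO replicate 3, and Thrsp to 0.30 without LT replicate 3. With each mouse left out, these 3 genes ranged from -0.20 to 0.13, -0.59 to 0.18 and -1.36 to 0.30. TPM moved the median of all genes to 0.08 and 0.10. The cause of these shifts was not tested. The number of genes past the adjusted threshold over the whole table was 4 by edgeR, 72 by DESeq2 (49 higher, 23 lower), 63 by exactTest (44 higher, 19 lower), 7 with limma on log2(TPM + 0.1), and 0 to 6 when each mouse was left out (0 without LT replicate 2).

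With the replicate number as a block, 0 genes passed the adjusted threshold and 6 lipogenic genes had an unadjusted p under 0.05 (Srebf1 and Pklr in addition, both lower). The deviations of same-numbered libraries had correlations of 0.249, 0.026 and 0.129 over 12577 genes, and 4 of the 6 libraries correlated best with their own number. LT replicate 2 and Fpn-LKO replicate 2 each correlated best with replicate 3 of the other group. With only 3 partners to choose from, some matches arise without any pairing, so this count cannot decide whether something is shared. The deposited library names of same-numbered mice carry adjacent numbers, which the sources used here do not explain. Because no source says that the mice are paired and 1 of the 3 correlations was below 0.1, the replicate numbers were not taken to pair them. Whether the mice are paired cannot be told from the labels. The precision is limited by the number of mice, since 3 against 3 allow no exact permutation p below 0.1.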

Other observations

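Of 8988 genes with a mean of at least 5 CPM, Coro1c, Ehmt1, Neurl4, Sae1 and Rab10 followed the mean profile of the 10 lipogenic genes most closely over the 6 libraries (Pearson correlation from 0.964 for Rab10 to 0.973 for Coro1c). Sae1, a subunit of the SUMO-activating enzyme, had 25.3, 41.4 and 27.1 CPM in LT against 13.3, 26.9 and 11.9 CPM in those labelled Fpn-LKO, with LT replicate 2 highest and Fpn-LKO replicate 3 lowest, an order of extremes that Acly and Srebf1 also had. These 5 were picked from many genes over only 6 libraries, so a close profile is given as a description.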
